A study of Mus musculus with 36 samples.

Results

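The comparison described here is CI-994 against vehicle in the mouse hippocampus (HIP), and its members are 6 of the 36 arrays of the series, chosen by their labelled brain region and treatment: 3 arrays of CI-994 and 3 of vehicle. All mice were adult males labelled C57BL/6J, with no transgenic genotype in the labels. The methods of the study give C57BL/6 mice from The Jackson Laboratory and Taconic Farms, 11 weeks old, and the supplier of each pool is not given in the sources used here. The CI-994 group received 10 mg/kg at 5 mL/kg and the vehicle group received 10% DMSO with equal shares, 45% each, of saline and PEG-400, at 7.5 mL/kg, each as 10 daily intraperitoneal injections, and brains were taken 1 h after the last one. The solvent of CI-994 is not given in the sources used here, so drug and any difference in injected fluid cannot be told apart. Each group held 6 mice, and RNA was pooled from 2 mice for each array, so that each value is the level in a pool of 2 mice and the 3 values of a group come from separate mice. The other arrays of the series held the medial prefrontal cortex (PFC) and nucleus accumbens (NAc) of the same mice, and mice given SAHA at 25 mg/kg or Cpd-60 at 45 mg/kg.

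Histone deacetylases (HDACs) remove acetyl groups from lysines of histones and other proteins, and the class I enzymes HDAC1, HDAC2 and HDAC3 act inside the nucleus as the catalytic subunits of corepressor complexes such as Sin3, NuRD, CoREST and NCoR. CI-994 (tacedinaline) is a benzamide that inhibits class I HDACs. Inhibition raises histone acetylation, and transcripts can move in either direction after it. The hippocampus, with its CA1 and CA3 pyramidal neurons and the granule neurons of the dentate gyrus, is known for memory and for its sensitivity to stress hormones. The question that the comparison addresses is which transcripts of this tissue differed after repeated dosing with CI-994.

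The 6 hippocampal arrays were similar in median intensity and share of probes detected, less so in their bright probes. The 95th percentile of raw intensity ran from 593.6 in CI-994 pool 1 to 850.1 in CI-994 pool 2. Median raw intensities of the 6 arrays ran from 92.5 to 108.3, and 37.3% to 39.7% of probes were detected at a detection p of at most 0.01. Dissection was checked with region markers in the vehicle arrays: 5 of 5 measured dentate gyrus markers, 6 of 7 CA3 markers and 5 of 6 markers of hippocampal neurons in general were brightest in HIP, whereas only 2 of 7 CA1 markers were, and 0 of the cortical and striatal markers. The array of CI-994 pool 2 stood apart. Its mean correlation with the other 5 arrays was 0.982, against 0.987 to 0.991 for the rest. In this array 21 probes lay 1 log2 unit or more below the median of the other 5, and 41 lay as far above. The 18S ribosomal RNA probe Rn18s was among them, at 9.87 on the log2 scale against 12.85 to 13.16 elsewhere. Values without that array are given wherever it decides a result. BeadChip (the slide that carries the arrays) was partly shared: chip 1 held vehicle pools 1 and 2 and CI-994 pool 1, and chip 2 held vehicle pool 3 and CI-994 pools 2 and 3.

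After CI-994, bright probes for the adult globin transcripts stood 0.60 to 0.83 log2 units below their vehicle level in HIP, and Echdc2, a gene of lipid metabolism, stood 1.47-fold above it, but no transcript passed the threshold over all probes. Across 21889 probes tested, which carry 15670 gene symbols, 0 (0%) reached an adjusted p under 0.05 by limma with Benjamini-Hochberg adjustment, and the smallest adjusted p was 0.612. At an unadjusted p under 0.05 there were 700 probes (3.2%), of which 375 (1.71%) were higher and 325 (1.48%) lower under CI-994. A threshold of that kind would pass 1094 probes if no transcript differed. Adding a 1.2-fold minimum left 64 higher (0.292%) and 92 lower (0.42%) probes. With 3 pools against 3, an exact permutation test of a single transcript could not give a p under 0.1. None of the values below is therefore a call over all probes. The adjusted p was 0.612 for the leading probes of Echdc2, Apoc1 and Hbb-b1 and 0.9998 for those of all other genes named below. Single genes are therefore given as the difference in log2 level (CI-994 minus vehicle) with its SE, and with the side of an unadjusted limma p of 0.05 on which they lay.

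Differences were small as well as few. The median log2 change was 0.00309, 51.6% of probes lay above 0, and the 1st and 99th percentiles of the change were -0.256 and 0.226. Only 5 probes differed by 1 log2 unit or more. All of them were lower on average under CI-994, and single pools carried the differences: Rn18s and the transcripts named LOC673501 and LOC385068 were low in CI-994 pool 2 alone, Prl was high in vehicle pool 3 alone, and Ttr varied within both groups. LOC673501, for example, read 12.62, 8.30 and 12.54 in the CI-994 pools and 12.53, 12.60 and 12.94 in the vehicle pools. On the scale used, which has no background correction, precision was enough to bound larger changes in signal. Dim probes carry background, which understates their changes, so the bounds are on signal and not on transcript level. The median SE of a log2 change was 0.0847, and the 95% confidence interval lay wholly within 1 log2 unit of 0 for 99.8% of probes and within 0.5 for 95%.

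**Figure D1:**
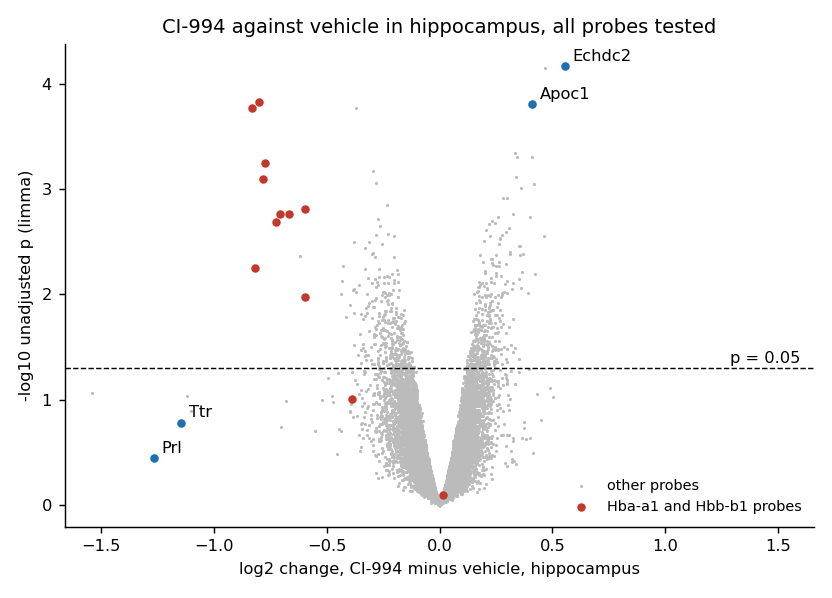
Each point is one of the 21889 probes tested in hippocampus, placed by its log2 change (CI-994 minus vehicle, x axis) and the -log10 of its unadjusted limma p (y axis), with globin probes in red and a dashed line at the unadjusted threshold of 0.05. Globin probes form the cluster at the upper left, Echdc2 and Apoc1 stand at the upper right, and the largest changes, those of Prl and Ttr among them, lie below the line.

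Among transcripts higher under CI-994, 40 probes were at least 1.2-fold higher at an unadjusted p under 0.05 with all 3 CI-994 pools above all 3 vehicle pools, reliably detected, and named. Over all probes tested, 1138 (5.2%) had all CI-994 pools above all vehicle pools. The 12 genes with the largest differences in that set are described here. Echdc2, a member of the enoyl-CoA hydratase family of lipid-metabolism enzymes, had the largest positive difference of the set. Its log2 level was 8.89, 9.16 and 8.73 in the CI-994 pools against 8.33, 8.34 and 8.45 in the vehicle pools. The lowest CI-994 pool was thus above the highest vehicle pool. The difference was 0.55 (SE 0.09; 1.47-fold; adjusted p = 0.612), and it was 0.55 within chip 1, 0.50 within chip 2 and 0.44 without CI-994 pool 2. All 3 Echdc2 probes on the array had the 3 CI-994 pools on top, with differences of 0.21 to 0.55.

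Apoc1, an apolipoprotein of plasma lipoproteins that glia also make, was the next of these by p. It read 7.28, 7.28 and 7.24 under CI-994 and 6.89, 6.95 and 6.72 under vehicle, a difference of 0.41 (SE 0.08). The treated pools lay within 0.05 of each other, and both Apoc1 probes behaved alike, at 0.34 and 0.41. With neqc background correction, which spreads dim probes, the difference was 0.98, above the 0.68 of Echdc2 in that setting. Tpd52l1, a member of the tumour protein D52 family, read 8.56, 8.40 and 8.40 against 8.12, 7.96 and 8.05 (0.41, SE 0.09). Its other probe gave 0.33, again with no overlap of the groups.

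Slc7a3, a carrier of arginine and other cationic amino acids, read 7.97, 7.62 and 8.16 under CI-994 against 7.56, 7.47 and 7.45 (0.42, SE 0.13). CI-994 pool 2 was the lowest of its group here, and without it the difference was 0.57. It was 0.66 with neqc. Cib2, which encodes a calcium- and integrin-binding protein, stood at 9.20, 8.96 and 9.35 against 8.82, 8.79 and 8.63 (0.42, SE 0.10), and both of its probes separated the groups. For Tmem50a, a transmembrane protein, the CI-994 pools clustered at 10.04, 9.97 and 10.05 while the vehicle pools spread over 9.80, 9.59 and 9.30 (0.46, SE 0.12).

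Dnajc12, a J-domain co-chaperone of the aromatic amino acid hydroxylases, was at 7.77, 7.73 and 7.96 against 7.53, 7.36 and 7.48 (0.36, SE 0.08). Its other probe differed by only 0.10, with no overlap of the groups but not at an unadjusted p under 0.05. Fkbp9, a peptidyl-prolyl isomerase of the endoplasmic reticulum, differed by 0.37 (SE 0.11), and Bet1, a SNARE protein of transport from the endoplasmic reticulum to the Golgi, by 0.36 (SE 0.10). By the rule that chose them, the named probes of all of these had the CI-994 pools above the vehicle pools. With neqc Dnajc12 differed by 0.59 and Bet1 by 0.74. Blvra, biliverdin reductase A, which turns the haem breakdown product biliverdin into bilirubin, differed by 0.39 (SE 0.13), a value that became 0.29, no longer at an unadjusted p under 0.05, when vehicle pool 2 was left out. Hist1h2ak (H2ac15), one of many nearly identical H2A histone genes, differed by 0.40 (SE 0.10), and its probe cannot be assigned to that copy alone. Pou3f1, a POU-domain transcription factor of CA1 pyramidal neurons, read 9.36, 9.24 and 9.27 against 8.76, 9.03 and 8.99 (0.36, SE 0.11). Its mean in the vehicle arrays was 8.93 in HIP, 8.26 in PFC and 9.04 in NAc, so it did not mark HIP in these arrays.

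**Figure D2:**
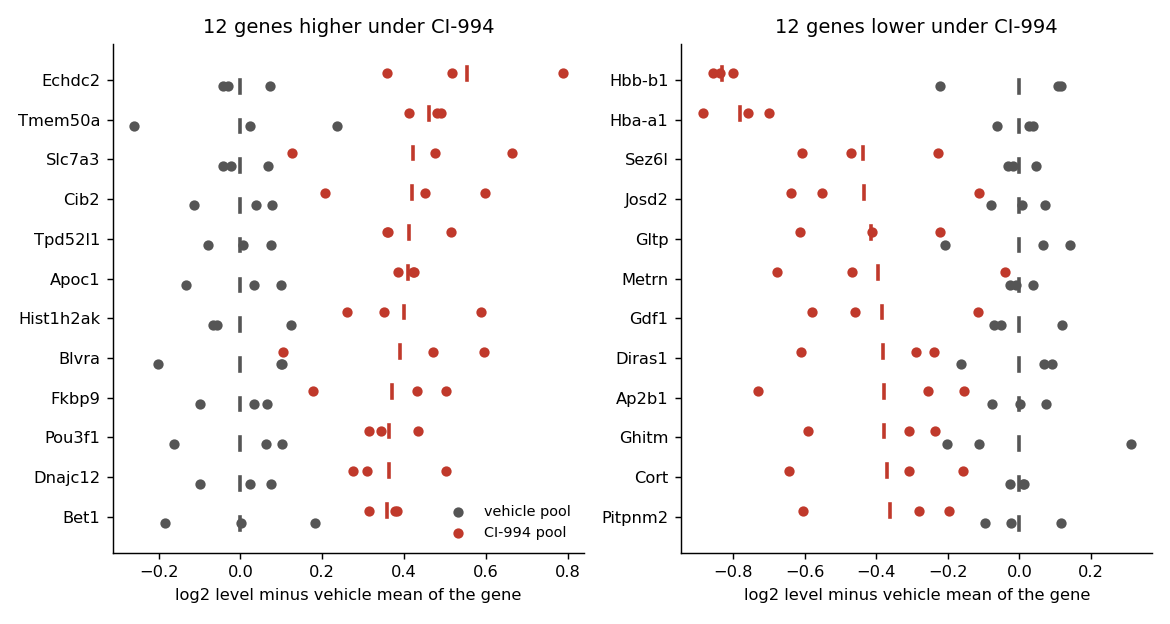
For the 12 genes highest and the 12 genes lowest under CI-994 by the stated rule, the log2 level of each pool minus the vehicle mean of that gene (x axis) is drawn as a point, vehicle in grey and CI-994 in red, with short bars at the group means. By that rule no CI-994 pool overlaps a vehicle pool, and Hbb-b1 and Hba-a1 stand away from the other 10 lower genes, whose group means lie between -0.44 and -0.36.

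Lower transcripts were led by the globins. The rule for lower genes was met by 53 probes, and over all probes 1043 (4.76%) had every CI-994 pool below every vehicle pool. Hbb-b1 encodes adult beta globin and Hba-a1 adult alpha globin, the paired subunits of haemoglobin, whose RNA is abundant in circulating reticulocytes. The Hbb-b1 probe with the largest difference read 11.63, 11.66 and 11.61 in the CI-994 pools and 12.57, 12.58 and 12.24 in the vehicle pools. This is a difference of -0.83 (SE 0.16; 1.78-fold lower, adjusted p = 0.612). Hba-a1 read 11.05, 11.11 and 10.92 against 11.84, 11.85 and 11.75, a difference of -0.78 (SE 0.18; 1.72-fold lower). The pools of each group lay close together and the groups were far apart for both subunits. Neither value rested on a single array or chip: Hbb-b1 was -0.95 within chip 1, -0.61 within chip 2 and -0.85 without CI-994 pool 2, and Hba-a1 was -0.79, -0.73 and -0.82.

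The array carries 12 globin probes that were tested, 11 labelled Hbb-b1 and 1 labelled Hba-a1. In 9 of them the vehicle mean was at least 10 on the log2 scale, a cut chosen after the values were seen, and all 9 had every CI-994 pool below every vehicle pool, with differences from -0.83 to -0.60 and a median of -0.73. The 3 dim probes ran from -0.82 to 0.02. These probes target the same few transcripts, so they repeat a measurement and are not separate genes. Since the adult beta globin genes are close copies and the alpha globin genes are nearly identical, a probe cannot be assigned to a single copy. The RefSeq promoter windows include the adult beta globin genes Hbb-bs and Hbb-bt. The 100 bases before the start of the 2 alpha and 2 beta genes are shown because their transcripts were the group that differed together. They are read 5′ to 3′ on the strand of the gene, from RefSeq on GRCm38.p6. Capitals mark the CACCC box, the CCAAT box (or ATTGG where it lies on the opposite strand) and the TATAA box of a core promoter.

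Hba-a1, chr11:32283572-32283671, plus strand: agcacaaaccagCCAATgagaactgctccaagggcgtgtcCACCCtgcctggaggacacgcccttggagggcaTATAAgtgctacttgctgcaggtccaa
Hba-a2, chr11:32296392-32296491, plus strand: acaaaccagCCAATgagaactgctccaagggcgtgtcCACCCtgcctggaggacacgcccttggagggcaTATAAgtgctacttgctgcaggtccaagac
Hbb-bs, chr7:103827929-103828028, minus strand: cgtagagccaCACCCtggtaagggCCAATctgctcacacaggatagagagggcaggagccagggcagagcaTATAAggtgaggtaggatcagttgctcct
Hbb-bt, chr7:103813924-103814023, minus strand: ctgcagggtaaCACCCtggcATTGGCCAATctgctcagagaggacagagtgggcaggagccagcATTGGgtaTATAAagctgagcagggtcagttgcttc

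All 4 windows hold each of the 3 motifs, searched on both strands. No motif overlaps another in these windows. Hba-a1 and Hba-a2 share 97 of 97 letters when one is moved by 3 bases. Over 32851 windows of the same length, CACCC occurred in 27.2%, CCAAT in 18.9%, TATAA in 10.2%, and all of them together in 0.472%. A match describes the letters and is no measure of a factor bound there.

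Globin transcripts were also lower under CI-994 in the other regions of the same mice. Averaged over the 9 bright probes, the vehicle pools of HIP stood at 12.07, 12.14 and 11.84 and the CI-994 pools at 11.40, 11.27 and 11.22, with no overlap. In PFC the vehicle pools read 12.55, 12.52 and 11.97 and the CI-994 pools 11.71, 11.98 and 11.72, where the highest treated pool met the lowest vehicle pool. The NAc values were 12.25, 12.24 and 11.78 against 11.91, 11.16 and 10.96, also with an overlap of single pools. All 9 probes were lower at an unadjusted p under 0.05 in PFC (-0.70 to -0.42) and in NAc (-0.89 to -0.63). Because a pool supplied all 3 regions, these are further tissue samples of the same animals and not further animals. The difference of the effect between HIP and the mean of PFC and NAc was -0.22 for Hbb-b1 (SE 0.26) and -0.08 for Hba-a1 (SE 0.33).

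Other blood and vascular markers were read beside the globins. The blood list of 4 genes tested (Hbb-b1, Hba-a1, Alas2 and Slc4a1) had a log2 summed level of 13.05 to 13.29 in the vehicle pools and 12.36 to 12.47 in the CI-994 pools. Alas2, the erythroid enzyme that starts haem synthesis, differed by -0.18 (SE 0.12) and Slc4a1, the anion exchanger of red cells, by -0.005. Endothelial markers had 0 of 9 genes at an unadjusted p under 0.05, and their summed level was 11.21 to 11.38 in vehicle and 11.13 to 11.39 in CI-994 pools. In bulk tissue, fewer cells of a type and less RNA per cell cannot be told apart, and the part of blood left in the tissue was not tested. For the other compounds, which share the vehicle arrays and were given at other doses, the values in HIP were -0.47 for Hbb-b1 and -0.25 for Hba-a1 under Cpd-60, and -0.42 and -0.52 under SAHA.

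**Figure D3:**
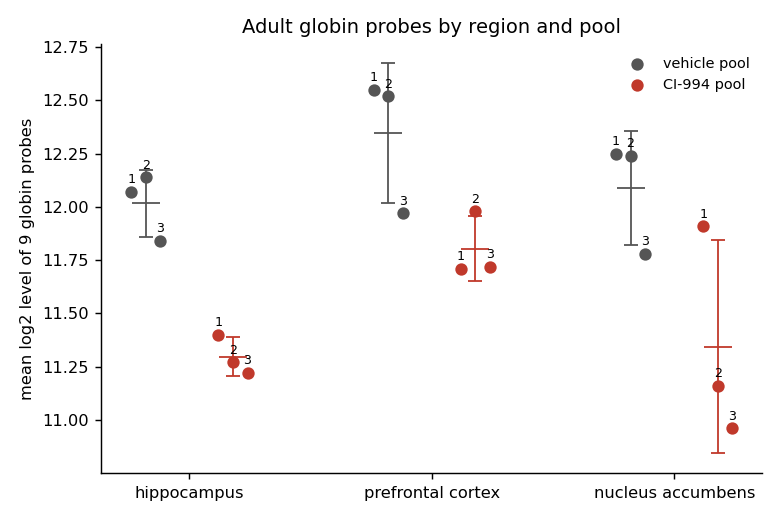
The mean log2 level of the 9 bright globin probes (y axis) is drawn for each pool in hippocampus, prefrontal cortex and nucleus accumbens, vehicle in grey and CI-994 in red, with pool numbers and the group mean ± SD. In hippocampus the CI-994 pools (11.22 to 11.40) lie below the vehicle pools (11.84 to 12.14), whereas in each of the other regions a single CI-994 pool reaches above the lowest vehicle pool.

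Of the other lower genes, Sez6l, a neuronal membrane protein of the seizure-related 6 family, read 10.07, 9.69 and 9.83 under CI-994 against 10.35, 10.28 and 10.27 (-0.44, SE 0.14). Its other probe differed by only -0.02. Gltp, glycolipid transfer protein, differed by -0.42 (SE 0.15) and Pitpnm2, a phosphatidylinositol transfer protein, by -0.36 (SE 0.15). The vehicle pools of Gltp were at 9.11, 9.18 and 8.83 and its CI-994 pools at 8.82, 8.63 and 8.43, so the groups almost met. Diras1, a small GTPase of the Ras family, was more even, at 10.31, 9.93 and 10.25 against 10.64, 10.61 and 10.38 (-0.38, SE 0.10).

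Gdf1, a ligand of the TGF-beta family, read 10.31, 9.85 and 9.97 against 10.36, 10.55 and 10.38 (-0.38, SE 0.12). Cort encodes cortistatin, a neuropeptide of interneurons related to somatostatin, and stood at 7.88, 7.39 and 7.73 against a narrow 8.05, 8.01 and 8.05 (-0.37, SE 0.12). Its second probe differed by -0.33, with overlapping groups. Metrn, meteorin, a secreted factor that promotes glial differentiation and axon growth, differed by -0.40 (SE 0.14). CI-994 pool 2 weighed on both of the last genes: without it Cort was -0.23 (-0.57 with neqc), and Metrn was -0.25 and no longer at an unadjusted p under 0.05. Within chip 1 Metrn differed by only -0.05, against -0.55 within chip 2.

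Josd2, a deubiquitinating enzyme, differed by -0.43 (SE 0.14), and Ghitm, a protein of the inner mitochondrial membrane, by -0.38 (SE 0.15). Ap2b1, the beta subunit of the AP-2 adaptor of clathrin-mediated endocytosis, differed by -0.38 (SE 0.13) on the named probe, yet only 2 of its 4 probes were lower. Single pools decided the unadjusted p of Ghitm, Ap2b1, Gltp and Pitpnm2. Leaving out CI-994 pool 3 moved Ap2b1 to -0.20, Gltp to -0.32, Ghitm to -0.27 and Pitpnm2 to -0.24. Without vehicle pool 1, Ghitm was -0.22, Pitpnm2 -0.30 and Gltp -0.38, and without vehicle pool 2 Gltp was -0.35 and Pitpnm2 -0.37. None of these values without a pool had an unadjusted p under 0.05. With median scaling in place of quantile normalization, Tmem50a, Cib2, Fkbp9, Sez6l, Gltp, Gdf1, Diras1, Ap2b1, Ghitm and Pitpnm2 kept their direction but not an unadjusted p under 0.05.

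No difference was detected in the transcripts of the drug targets. Hdac2 read 9.98, 9.48 and 10.17 in the CI-994 pools and 9.91, 9.99 and 10.08 in the vehicle pools, a difference of -0.11 with a 95% confidence interval of -0.46 to 0.23. Without CI-994 pool 2, the array that stood apart, it was 0.09. Hdac3, the catalytic subunit of the NCoR complex, differed by -0.02 (interval -0.25 to 0.20), or by 0.11 without that pool, and Hdac8, a class I enzyme outside these complexes, by 0.06 (interval -0.08 to 0.20). These intervals leave room for modest changes and bound larger ones in the measured signal. The Hdac8 probe was dim (vehicle mean 6.97 on the log2 scale), and dim probes understate changes. Hdac1 has no tested probe under that symbol and is not analysed here. Class II and IV HDACs had 0 of 7 genes at an unadjusted p under 0.05, with a median of -0.06.

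Corepressor subunits, 23 genes of the Sin3, NuRD, CoREST and NCoR complexes and their partners, had 0 at that p, and their median was 0.03 with 13 above and 10 below 0. The shares over all probes, beside which these and the later lists stand, were 51.6% above 0, and 1.71% higher and 1.48% lower at that p. Among 18 acetyltransferases and acetyl-lysine readers 1 was lower. This was Brd3, a bromodomain protein of the BET family, at 8.95, 8.95 and 8.71 against 9.30, 9.12 and 9.06 (-0.30, SE 0.10), which was -0.22 or -0.23, and no longer at an unadjusted p under 0.05, when CI-994 pool 3 or vehicle pool 1 was left out. Of 18 genes known to respond to HDAC inhibitors in cultured cells, 0 reached an unadjusted p under 0.05, and 9 lay above and 9 below 0. Cdkn1a, the cell-cycle inhibitor p21, is the textbook member of that list and differed by -0.16 (SE 0.38). Ctgf, a matricellular growth factor, differed by 0.50 with overlapping groups (SE 0.28).

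Histone genes gave 1 higher and 3 lower genes of 51 tested at an unadjusted p under 0.05, beside 1.71% higher and 1.48% lower over all probes, with a median of 0.02. The higher one was Hist1h2ak. The lower ones were Hist2h2aa2 (H2ac19, -0.23, SE 0.10), the linker histone gene Hist1h1c (H1f2, -0.19, SE 0.07) and Hist1h4h (H4c8, -0.17, SE 0.07). Probes for histone genes can read several near-identical copies, so these names are those of the array design. The unadjusted p of each lower histone gene rose above 0.05 when single pools were left out: CI-994 pool 1 for Hist1h1c, CI-994 pool 2 or 3 or vehicle pool 3 for Hist2h2aa2, and CI-994 pool 2 or 3 or vehicle pool 2 or 3 for Hist1h4h.

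Transcripts that the study had measured again by PCR, chosen for the other compounds, were read in the CI-994 arrays. None of the 8 reached an unadjusted p under 0.05. Sgk1, a kinase induced by glucocorticoids, read 9.99, 10.10 and 10.07 against 9.90, 10.28 and 10.35 (-0.12, interval -0.51 to 0.27). Its values in the same region were 0.89 under Cpd-60 and 0.02 under SAHA. Tsc22d3, the glucocorticoid-induced leucine zipper, read 9.11, 9.09 and 9.21 against 9.40, 9.33 and 9.26 (-0.19, interval -0.54 to 0.15), beside 0.43 under Cpd-60 and 0.06 under SAHA. The CI-994 pools of Tsc22d3 were below all vehicle pools, with an interval that includes 0.

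Sult1a1, a phenol sulfotransferase, had the smallest p of that set, at 7.44, 7.28 and 7.48 against 7.55, 7.53 and 7.59 (-0.16, SE 0.08), beside 0.16 under Cpd-60 and 0.002 under SAHA. Agxt2l1 (Etnppl), which breaks down phosphoethanolamine in astrocytes, differed by -0.14, beside 0.29 and -0.08. Mfsd2 (Mfsd2a), the lipid transporter of brain endothelium, differed by 0.06, beside 0.55 and 0.27, and Cacng5, an auxiliary subunit of AMPA receptors, by 0.05, beside 0.48 and -0.10. Qdpr, which regenerates tetrahydrobiopterin, differed by -0.01, beside -0.29 and -0.35, and Rock2, a serine/threonine kinase, by -0.0001, beside 0.02 and 0.09. Doses and the injected volume were not matched between the compounds and all 3 share the same vehicle arrays, so their values stand side by side with no test between them.

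The wider list of glucocorticoid-induced genes gave 0 higher and 1 lower of 24 tested, with a median of -0.03, beside a median of 0.31 for these genes under Cpd-60. All CI-994 pools lay below all vehicle pools in 6 of them and above in 1, beside 4.76% and 5.2% over all probes. The lower gene was Klf9, a Krüppel-like factor that glucocorticoids and thyroid hormone induce in hippocampal neurons. It read 11.03, 11.23 and 11.32 against 11.38, 11.49 and 11.49 (-0.26, SE 0.11). Without CI-994 pool 1 it differed by -0.18 and without vehicle pool 2 or vehicle pool 3 by -0.24, in each case with an unadjusted p above 0.05.

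Immediate early genes, which neurons switch on within minutes of firing, had 0 of 17 at an unadjusted p under 0.05 and a median of -0.002. Arc, a regulator of AMPA receptor traffic, differed by 0.23 (SE 0.18), Egr1 by -0.08 (SE 0.14) and Egr3 by -0.27 (SE 0.12). With the BeadChip as a block Egr3 differed by -0.36, at an unadjusted p under 0.05, and by -0.14 without CI-994 pool 1. Its other probe differed by 0.14, with the CI-994 pools above all vehicle pools. Bdnf, the neurotrophin that supports synaptic plasticity, was lower at an unadjusted p under 0.05. Its named probe read 8.64, 8.66 and 8.58 under CI-994 and 8.87, 8.94 and 8.81 under vehicle. The difference was -0.25 (SE 0.08), and it was -0.27 within chip 1 and -0.19 within chip 2. Of 6 Bdnf probes 5 were lower and 3 had the CI-994 pools below all vehicle pools, while 1 passed an unadjusted p of 0.05. Side by side, the same probe gave -0.27 in PFC and -0.17 in NAc under CI-994, and -0.25 under Cpd-60 and -0.23 under SAHA in HIP. It was the single member at that p among 8 neurotrophin genes, whose median was -0.10.

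Of 26 glutamate receptor and scaffold genes 0 reached an unadjusted p under 0.05 (median 0.05), of 14 GABA genes 1 was lower (median -0.03), and of 22 synaptic vesicle genes 1 was lower (median -0.01). The GABA gene was Gad1, the main GABA-synthesising enzyme, at 10.85, 10.87 and 10.85 against 11.24, 11.02 and 10.96 (-0.21, SE 0.07). Without vehicle pool 1 the difference was -0.13. A further Gad1 probe differed by -0.35 and a dim one by 0.07. The vesicle gene was Syt7, a calcium sensor of slow and facilitated transmitter release, which the array names B230112P13Rik, at 8.94, 8.63 and 8.99 against 9.13, 9.14 and 9.18 (-0.29, SE 0.08). Without CI-994 pool 2 it was -0.18. Potassium channel genes had 0 of 33 at that p, with 10 above and 23 below 0 and a median of -0.04. Over all probes, 51.6% lay above 0.

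Among 17 clock genes 1 was lower, with a median of -0.02. Bhlhb2 (Bhlhe40, also DEC1), a repressor in the circadian loop that neuronal activity also induces, read 8.87, 8.67 and 9.08 against 9.24, 9.14 and 9.22 (-0.33, SE 0.09), and it was -0.32 within chip 1 and -0.35 within chip 2. The list held 6 genes above and 11 below 0, and its highest value was 0.07. The Bhlhb2 value was 0.04 in PFC and 0.28 in NAc of the same mice.

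Lists of neuronal markers had medians within 0.1 of 0. The CA1 list had a median of 0.08 with Pou3f1 as its single member at an unadjusted p under 0.05. In the vehicle arrays Pou3f1 was brighter in NAc than in HIP, as given above. The CA3 list had a median of 0.05 with 0 of 7 at that p, and the dentate gyrus a median of 0.008 with 0 of 5. Hippocampal neurons in general had a median of -0.08 with 0 of 6. Among 13 interneuron markers Gad1 was the single member at that p. Sst, somatostatin, differed by 0.09 and Npy, neuropeptide Y, by -0.04, both with overlapping groups. Medians of the marker lists of neighbouring tissue, thalamic, cortical and striatal, were -0.005, 0.003 and -0.009.

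Oligodendrocyte markers had 12 of 13 genes below 0 and a median of -0.21, against 0.003 over all probes tested. Of these markers, 2 were lower at an unadjusted p under 0.05 and 5 had the CI-994 pools below all vehicle pools. The shares over all probes were 1.48% and 4.76%. The members ran from -0.39 for Fa2h, which hydroxylates myelin lipids, to 0.02 for Opalin, and Mbp, myelin basic protein, differed by -0.17. Mog, a protein of the outer myelin surface, read 9.34, 9.36 and 9.22 against 9.38, 9.65 and 9.65 (-0.25, SE 0.09), and its other probe differed by -0.29 with no overlap either. Without CI-994 pool 3, vehicle pool 2 or vehicle pool 3, Mog differed by -0.21 and no longer had an unadjusted p under 0.05. The summed level of the list was 14.70 to 14.85 in the CI-994 pools and 14.86 to 15.01 in the vehicle pools, a gap narrower than either range. The list median was 0.06 in PFC and -0.17 in NAc under CI-994, and -0.08 under Cpd-60 and -0.26 under SAHA in HIP.

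Microglia and astrocytes each had 1 higher marker. C1qa, a chain of the complement starter C1q that microglia make, read 7.72, 7.55 and 7.61 against 7.37, 7.26 and 7.46 (0.26, SE 0.08). The microglial list as a whole had a median of -0.01 over 13 genes. Slc1a2, the main astrocytic glutamate transporter, differed by 0.21 (SE 0.08) on the named probe and by values down to -0.10 on its others, and the 12 astrocyte markers had a median of -0.03. C4b, a complement component and the single member at that p of 7 reactive astrocyte genes, read 7.55, 7.57 and 7.66 against 7.17, 7.33 and 7.34 (0.31, SE 0.09). Of its 3 probes, 1 differed by -0.008 and only the named one had an unadjusted p under 0.05. Its values under Cpd-60 and SAHA were 0.50 and 0.26. Oligodendrocyte precursor markers had 1 of 7 higher, Cspg4, by 0.17 (SE 0.08) with overlapping groups, and a median of -0.12. Slc1a2 had an unadjusted p above 0.05 without CI-994 pool 2 or 3 or vehicle pool 1, and Cspg4 without CI-994 pool 2 or 3, without vehicle pool 1 or 3, and with the BeadChip as a block (0.15).

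Choroid plexus, the tissue that secretes cerebrospinal fluid beside the hippocampus, varied from pool to pool. Ttr, its defining secreted protein transthyretin, read 13.31, 9.91 and 11.02 in the CI-994 pools and 13.31, 13.11 and 11.25 in the vehicle pools (-1.14, SE 0.78). The difference was -0.39 without CI-994 pool 2. The summed level of the list ran from 11.52 to 13.83 under CI-994 and from 12.18 to 13.82 under vehicle, 2 of 11 genes lay above 0, and the median of -0.24 became -0.08 with the BeadChip as a block. Because the pools with little choroid plexus fell on chip 2, chip and choroid plexus content cannot be told apart.

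**Figure D4:**
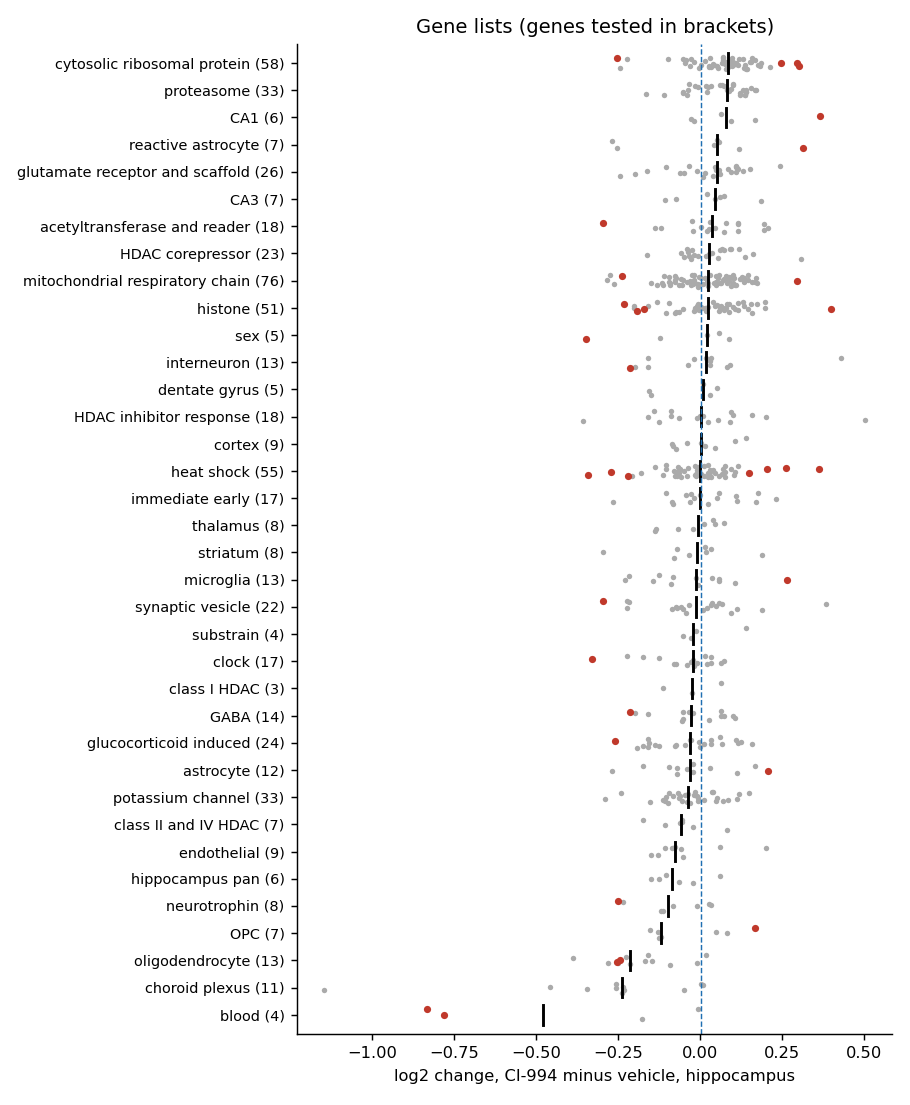
For every gene list, each tested gene is a point at its log2 change in hippocampus (CI-994 minus vehicle, x axis), red where its unadjusted p was under 0.05, with a black bar at the list median and a dashed line at the median of all probes. Medians of most lists lie within 0.1 of the dashed line, and the blood (-0.48), choroid plexus (-0.24) and oligodendrocyte (-0.21) lists lie farthest below it.

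Housekeeping groups were mostly near or slightly above the vehicle level. Cytosolic ribosomal protein genes had 47 of 58 genes above 0 and a median of 0.09, with 3 higher and 1 lower at an unadjusted p under 0.05. Over all probes tested, 51.6% lay above 0, and 1.71% were higher and 1.48% lower at that p. Rpl24 read 11.28, 11.17 and 11.03 against 10.82, 10.84 and 10.94 (0.30, SE 0.07), Rpl18 differed by 0.30 (SE 0.09) and Rps6 by 0.25 (SE 0.09). Rps27a, which encodes a fusion of ubiquitin and a ribosomal protein, differed by -0.25 (SE 0.08) on one probe and by 0.11 on another. By pool, the ribosomal median against the vehicle mean was 0.08, 0.16 and 0.006 for CI-994 pools 1, 2 and 3, so pool 3 sat at the vehicle level. Rps6 was no longer at an unadjusted p under 0.05 without CI-994 pool 1 (0.20) or vehicle pool 2 (0.19), and Rps27a without CI-994 pool 3 (-0.19).

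Proteasome genes had 24 of 33 above 0, beside 51.6% of all probes, and a median of 0.08, with 0 at that p. Mitochondrial respiratory chain genes had 44 of 76 above 0 and a median of 0.02. Ndufa2, a subunit of complex I, was higher (11.09, 11.22 and 10.96 against 10.73, 10.88 and 10.78, a difference of 0.30, SE 0.09), and Cox7b, a subunit of complex IV, differed by -0.24 (SE 0.10) with overlapping groups. Heat shock and co-chaperone genes had 4 higher and 3 lower of 55 with a median of -0.0006, beside 1.71% and 1.48% over all probes. Hspa2, an HSP70 family member, read 10.54, 10.59 and 10.70 against 10.39, 10.35 and 10.30 (0.26, SE 0.07), and its 2 probes, at 0.26 and 0.28, both separated the groups. On the lower side, the endoplasmic reticulum chaperone Hsp90b1 differed by -0.34 (SE 0.14) and the mitochondrial chaperonin Hspd1 by -0.27 (SE 0.12), and both had overlapping groups. The other members at that p were Dnajc12, Dnajc17 (0.20, SE 0.09), Dnajc18 (0.15, SE 0.07) and Hspb6 (-0.22, SE 0.10). The last 3 fell outside the rule for named genes, were chosen after their values were seen, and were not recomputed under other settings. Cox7b and Hspd1 had an unadjusted p above 0.05 without CI-994 pool 2 or 3 or vehicle pool 1 or 2, and Hsp90b1 without CI-994 pool 3 or vehicle pool 1 or 2. Over all lists together, 0 genes reached an adjusted p under 0.05.

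The comparison with the other regions asked whether any transcript responded to CI-994 in HIP differently from PFC and NAc. Over 17844 probes, 0 (0%) had an adjusted p under 0.05 for the difference of the effects (limma, smallest adjusted p 0.999), and 265 (1.49%) had an unadjusted p under 0.05, of which 187 (1.05%) were relatively higher and 78 (0.437%) relatively lower in HIP. No transcript was thus shown to respond in HIP alone. Among the 21889 probes kept by their detection in HIP, 764 had an unadjusted p under 0.05 within PFC and 335 within NAc, beside the 700 of HIP. Each of these counts is below the 1094 that such a threshold would pass if no transcript differed.

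Pou3f1 had a difference between regions of 0.53 (SE 0.17), with values of 0.36 in HIP, -0.12 in PFC and -0.21 in NAc. Neu2, a cytosolic sialidase, differed by 0.20, -0.22 and -0.18 in the same order (difference 0.40, SE 0.16). Nfyb, a subunit of the CCAAT-binding factor NF-Y, differed by 0.20, -0.19 and -0.19 (difference 0.39, SE 0.16). Within single regions, the change of Nfyb had an unadjusted p under 0.05 in PFC but not in HIP or NAc. In the other direction, Prkag2, a regulatory subunit of the energy sensor AMPK, differed by -0.36, 0.03 and 0.27 (difference -0.51, SE 0.21). Gdf1 differed by -0.38, -0.06 and 0.12 (difference -0.42, SE 0.14), and Gltp by -0.42, 0.008 and -0.07 (difference -0.38, SE 0.18). These genes were chosen among those with an unadjusted p under 0.05 for the difference between regions, so all of them had it. For Gltp that was lost without CI-994 pool 2 or 3 or vehicle pool 1 or 2, for Prkag2 without the same pools, for Neu2 without CI-994 pool 3, and for Nfyb without CI-994 pool 3 or vehicle pool 1. With median scaling none of the 6 had an unadjusted p under 0.05.

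Several other genes named for HIP had values of the same sign in all regions. Echdc2 differed by 0.55 in HIP, 0.48 in PFC and 0.25 in NAc, Tpd52l1 by 0.41, 0.48 and 0.30, Apoc1 by 0.41, 0.27 and 0.39, and Fkbp9 by 0.37, 0.32 and 0.36. Slc7a3 differed by 0.42, 0.48 and 0.12. On the lower side Cort differed by -0.37, -0.44 and -0.23. Of the genes with the largest differences in HIP, Tmem50a, Cib2, Hist1h2ak, Dnajc12, Josd2 and Metrn also kept their sign in PFC and NAc. The difference between regions was 0.19 (SE 0.14) for Echdc2, 0.02 for Tpd52l1, 0.08 for Apoc1, 0.03 for Fkbp9 and -0.04 for Cort, none at an unadjusted p under 0.05. The named probe of Dnajc12, at 0.07 in PFC and 0.02 in NAc against 0.36 in HIP, had a difference of 0.31 (SE 0.11). Its other probe differed by 0.10 in HIP.

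**Figure D5:**
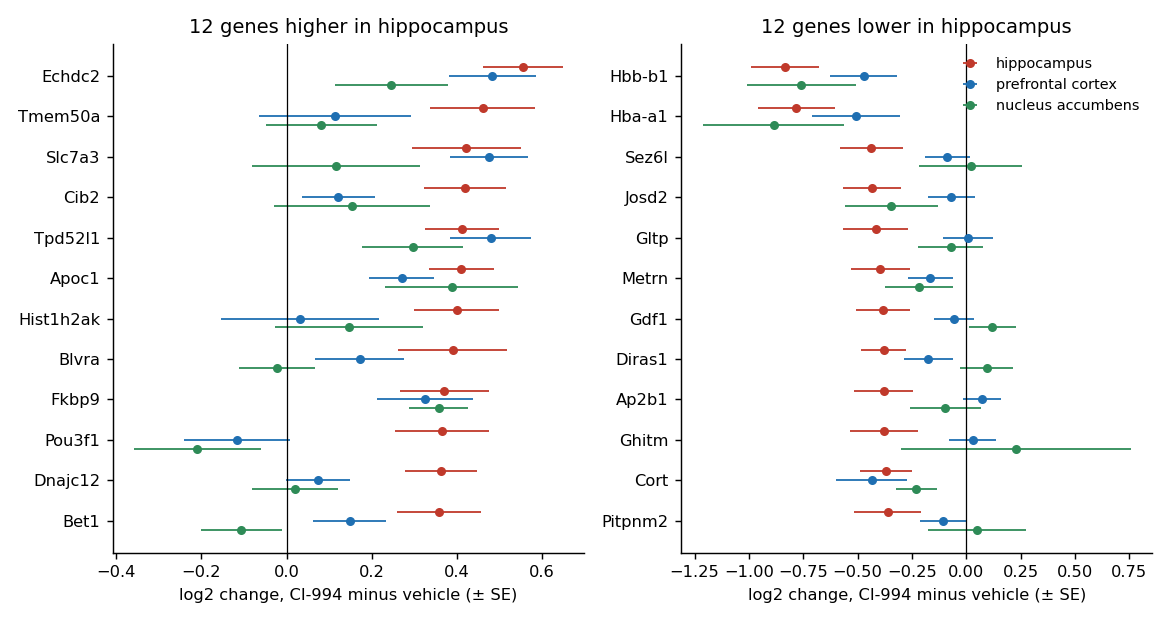
For the 12 genes highest (left) and the 12 genes lowest (right) under CI-994 in hippocampus by the stated rule, points give the log2 change (CI-994 minus vehicle, x axis) in hippocampus (red), prefrontal cortex (blue) and nucleus accumbens (green), with bars of 1 SE either way. Echdc2, Tmem50a, Slc7a3, Cib2, Tpd52l1, Apoc1, Hist1h2ak, Fkbp9 and Dnajc12 lie above 0 in all regions. Hbb-b1, Hba-a1, Josd2, Metrn and Cort lie below 0 in all regions. Pou3f1 lies above 0 in hippocampus and below 0 in the others.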

How the data were processed

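Total RNA of dissected hippocampus, medial prefrontal cortex and nucleus accumbens was pooled from 2 mice per array and hybridised, as biotin-labelled cRNA, to Illumina MouseWG-6 BeadChips. The table that the authors deposited holds, for 45281 probes and 36 arrays, a raw summary intensity that is not normalized, and the detection p-value that the scanner software gave each deposited intensity. The number of arrays limits the precision.

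All 36 arrays were quantile normalized together, floored at 1 and transformed to log2. Probes with a detection p of at most 0.2 in 3 of 3 arrays of either group were kept. Treatments were fitted by limma 3.58.1 in R 4.3.3 on the 12 hippocampal arrays, which share one estimate of the spread, and CI-994 was contrasted with vehicle, with Benjamini-Hochberg adjustment. For the difference between regions, all 36 arrays were fitted with the pool of mice as a random block (statmod 1.5.0). The estimated correlation within pools was -0.00233. The fitting steps were tested on simulated data.

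Named genes were the 12 largest rises and 12 largest falls of at least 1.2-fold at an unadjusted p under 0.05, with no overlap of pools, a detection p of at most 0.05 in the higher group and a gene symbol, 1 probe a gene, since none passed an adjusted p of 0.05. To these were added class I HDACs, the transcripts measured by PCR, and up to 4 members of each gene list at an unadjusted p under 0.05 (or the 2 brightest). The 3 genes with the largest difference between regions each way were added by the same limits, with an unadjusted p under 0.05 for that difference. A list used the brightest tested probe of a gene. Genes outside the rule (LOC673501, LOC385068, Rn18s, Prl, Alas2, Slc4a1, Cdkn1a, Ctgf, Arc, Sst, Npy, Fa2h, Opalin, Mbp, Nell2, Dnajc17, Dnajc18 and Hspb6) were named after their values were seen. The members and lists were chosen with earlier results of these data known. Of 30869 array symbols 21929 matched RefSeq. Promoter windows came from RefSeq tables (GRCm38.p6). Probe sequences and a genome were not used here. Values of some single list members are not reported here.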

Additional observations from a re-analysis of the deposited data

How the results depend on the processing

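No probe reached an adjusted p under 0.05 in any of the settings tried, over all probes, the named genes, the gene lists or the difference between regions, and over all probes the smallest adjusted p ran from 0.146 (without CI-994 pool 2) to 1. The 700 probes at an unadjusted p under 0.05 became 353 with median scaling, 457 with a detection p of at most 0.01, 1491 with no detection filter, which tests more probes, and 243 with the analysis of variance and Tukey test of the study's methods. Leaving out single pools gave 554 to 1183, with the highest counts without CI-994 pool 2 (1183) and CI-994 pool 1 (1090). With the 1.2-fold minimum, the 64 higher and 92 lower probes became 388 and 341 with neqc background correction, 27 and 43 with median scaling, and 26 and 18 with the Tukey test, and leaving out a pool gave 64 to 222 higher and 69 to 318 lower. Higher counts over 1.5 times came without CI-994 pool 1 (165 higher, 318 lower), pool 2 (222 and 223), pool 3 (165 higher) and vehicle pool 3 (106 and 220). For the difference between regions, the 265 probes became 43 with median scaling, 172 with a detection p of at most 0.01, 1273 with no filter and 186 to 824 without single pools, with the most without CI-994 pool 1 (824) and vehicle pool 3 (710). Apart from the number of probes tested, the cause was not tested.

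For 51 named probes at an unadjusted p under 0.05, all 765 alternative values kept their direction and none was reversed. Much of this was fixed in advance. The detection filters, the fit of only the 6 arrays, the replicate block and the Tukey test leave the difference itself unchanged. Leaving out a pool cannot reverse a probe whose groups do not overlap. In those cases the kept direction tests nothing. Of the 765 values, 635 also had a p under 0.05, while 130 did not. The losses were 32 of 51 with the Tukey test, 27 with median scaling and 10 with neqc. Apart from the values given above, neqc also moved C1qa to 0.46, C4b to 0.56, Cox7b to -0.63, Cspg4 to 0.42, Hist1h4h to -0.27, Neu2 to 0.46, Prkag2 to -0.56 and Eif2s3y to -0.61, each over 1.5 times the value given. The share of higher probes among those at an unadjusted p under 0.05 was 53.6%, and 43% without vehicle pool 3.

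The pool numbers mark different mice in each group. Deviations from the group means correlated by -0.0651, -0.152 and 0.451 between same-numbered pools, so the numbers were not taken as pairs. With a replicate block the 700 probes became 947, of which 0 passed an adjusted p of 0.05, and the 92 lower probes became 144. The BeadChip as a block gave 750.

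Limits: with 3 pools per group, no difference passed over all probes, those of the globins included. The median half-width of a 95% confidence interval was 0.184. Dim probes carry background signal, which understates their changes. The SAHA arrays 2 and 3, which share the estimate of the spread, were the dimmest in HIP, and with only the 6 arrays of this comparison 764 probes had an unadjusted p under 0.05 (smallest adjusted p 0.167).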

Other observations

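Prl, which encodes the pituitary hormone prolactin, was at background in 5 of the 6 hippocampal arrays (6.46 to 6.66 on the log2 scale) and read 10.12 in vehicle pool 3. Its difference of -1.27 between the groups (SE 1.33) rested on that pool.

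LOC673501, LOC385068 and 2 probes of Rn18s were among the 21 probes that lay far below the other arrays in CI-994 pool 2. LOC385068 read 10.89, 7.44 and 10.88 in the CI-994 pools and 10.63, 10.70 and 11.18 in the vehicle pools. Transcripts that were high in that pool included Nell2, which encodes a secreted neuronal protein, at 9.50 against 7.47 to 8.07 in the others.

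Eif2s3y, a Y-linked translation factor gene, read 7.41, 7.18 and 7.32 under CI-994 and 7.65, 7.75 and 7.54 under vehicle (-0.35, SE 0.12), and its other probe differed by -0.003. Its unadjusted p was above 0.05 without CI-994 pool 2 or vehicle pool 2.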
